A study of Homo sapiens with 33 samples.

Results

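The dual specificity phosphatases (DUSPs) that act on MAP kinases were followed in 3 head and neck squamous cell carcinoma (HNSCC) cell lines treated with cetuximab, an antibody that blocks the epidermal growth factor receptor (EGFR). The group was a list of gene symbols, chosen with earlier results of these data known. It held DUSP1, DUSP2, DUSP4, DUSP5, DUSP6, DUSP7, DUSP8, DUSP9, DUSP10 and DUSP16, and all 10 had a row among the 56470 gene symbols of the count table. The data were 33 bulk RNA sequencing libraries from the established lines SCC1 (UM-SCC-1), SCC6 (UM-SCC-6) and SCC25. Each line was grown with the vehicle, phosphate-buffered saline (PBS), and sampled on days 0 to 5, or with 100 nM cetuximab and sampled on days 1 to 5, with treatment begun the day after seeding. Each line, treatment and day had 1 library, so the 5 days of a treatment served as its replicates and the p-values measure the spread over days, not over separate cultures. In SCC6, 2 cetuximab libraries carry the label of day 2 and no cetuximab library that of day 1, and the pair is written 2a and 2b in the order of the table.

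MAP kinases relay signals from growth factor receptors and from cell stress, and are active only while both a threonine and a tyrosine of their activation loop are phosphorylated. These phosphatases remove both phosphates. DUSP1, DUSP2, DUSP4 and DUSP5 are nuclear and their genes are induced by mitogens or stress. DUSP6, DUSP7 and DUSP9 are mainly cytoplasmic and prefer extracellular signal-regulated kinase (ERK). DUSP8, DUSP10 and DUSP16 act mainly on the stress kinases JNK and p38. Several of the genes are themselves switched on by the kinase they inactivate, and DUSP6 mRNA is widely used as a readout of ERK activity below EGFR.

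The promoters of 8 of the 10 genes were scanned, with sequences from RefSeq (GRCh38.p14, 250 bases before to 50 after the start site). The remaining promoters were not scanned. Those of DUSP6 and DUSP8 are shown because DUSP6 mRNA fell and DUSP8 mRNA rose in every line. That of DUSP1 is shown because its mRNA rose with days in culture in SCC1 and SCC25. The sequences are written 5′ to 3′ on the strand of the gene. Capitals mark matches to TGACG, to TGACGTCA, which holds TGACG on both strands, or to CACGTG. All 3 genes lie on the minus strand, DUSP6 at chr12:89352452-89352751, DUSP8 at chr11:1572222-1572521 and DUSP1 at chr5:172771146-172771445.
DUSP6: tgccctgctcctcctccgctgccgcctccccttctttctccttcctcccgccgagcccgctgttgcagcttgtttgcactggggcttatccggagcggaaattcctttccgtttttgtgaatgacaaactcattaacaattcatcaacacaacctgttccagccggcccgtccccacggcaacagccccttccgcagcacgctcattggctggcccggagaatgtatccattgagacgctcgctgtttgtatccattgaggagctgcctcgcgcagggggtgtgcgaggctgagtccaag
DUSP8: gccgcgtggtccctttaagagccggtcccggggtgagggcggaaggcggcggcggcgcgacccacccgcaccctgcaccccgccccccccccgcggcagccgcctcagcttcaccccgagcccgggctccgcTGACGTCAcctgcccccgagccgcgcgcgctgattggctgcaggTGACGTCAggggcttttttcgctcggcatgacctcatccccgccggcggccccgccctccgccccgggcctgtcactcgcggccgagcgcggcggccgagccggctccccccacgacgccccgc
DUSP1: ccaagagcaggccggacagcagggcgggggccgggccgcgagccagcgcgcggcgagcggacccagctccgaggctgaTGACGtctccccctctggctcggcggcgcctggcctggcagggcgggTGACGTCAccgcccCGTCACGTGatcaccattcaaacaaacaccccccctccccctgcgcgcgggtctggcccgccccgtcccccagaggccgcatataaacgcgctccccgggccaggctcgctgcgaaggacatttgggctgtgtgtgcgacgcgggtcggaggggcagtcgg
The DUSP8 window held TGACGTCA at 2 places, starting at positions -118 and -74 from the start site, and the DUSP1 window held it once, at -125. Of 35116 human promoters of this length, 1.85% held TGACGTCA and 24.6% held TGACG on either strand. CACGTG, present in 7.26% of promoters, occurred at -108 in DUSP1 and at -113 in DUSP2. The windows of DUSP6, DUSP7, DUSP9 and DUSP16 held no match to these motifs or to the others searched, which were TGANTCA (in 7.71% of promoters), CCGGAA (in 17.2%), TGTTTAC (in 3.42%) and the CArG box (in 1.29%). Among the DUSP10 promoters there was 1 TGACG. A match is only a description of the letters.

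The libraries held 28508758 to 80727478 estimated counts, and values are given as CPM (counts per 1000000 counts) after scaling with trimmed mean of M-values (TMM) factors. Libraries came from 5 flow cells that only partly crossed the treatments, so the change within a flow cell is given beside a result where it altered the call. In SCC1 that contrast set 5 cetuximab libraries against 1 PBS library, that of day 5. In SCC6 it set the cetuximab libraries 2a, 2b and day 3 against PBS days 2 to 5. All 6 squamous epithelium markers reached a mean of 1 CPM in each line, the leukocyte markers summed to at most 7.22 CPM and the endothelium markers to at most 1.07 CPM. The fibroblast markers summed to 20.8–32.6 CPM with PBS and 49.8–146 with cetuximab for SCC1. For SCC6 the sums were 2.90–4.99 and 8.85–97.3, and for SCC25 131–174 and 221–336. Their part in the results below was not tested. EGFR mRNA was 605 ± 23.9 with PBS and 900.1 ± 106 with cetuximab in SCC1 (CPM, SD over 5 libraries each) and rose there (log2 fold change 0.58, adjusted p = 5.2e-05). Its log2 fold changes were 0.09 in SCC6 (adjusted p = 0.46) and 0.086 in SCC25 (adjusted p = 0.15).

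With PBS, the lines carried different sets of these phosphatases. Levels were compared between genes as CPM per kilobase of the longest annotated transcript (mean ± SD over days 1 to 5). In SCC1, DUSP6 (38.2 ± 9.47) and DUSP5 (36.6 ± 8.37) stood highest, followed by DUSP7 (27.7 ± 2.64). In SCC6, the inducible nuclear genes led, with DUSP5 at 79.2 ± 19.7, DUSP1 at 74.3 ± 5.90 and DUSP4 at 42.5 ± 3.66, while DUSP6 was at 12.7 ± 1.71. In SCC25, DUSP7 (33.1 ± 2.14), DUSP10 (26.1 ± 2.30) and DUSP6 (24.5 ± 2.07) led and DUSP4 was at 2.29 ± 0.121. The leading neighbours in SCC1 and in SCC6 lay within 1 SD of each other, so their order is not settled. DUSP2, DUSP8 and DUSP9 were the lowest 3 in SCC1 and in SCC6. With the median transcript length the order changed, and DUSP6 led in SCC1 (129 ± 31.97) and in SCC25 (82.7 ± 6.99), where DUSP10 (51.4 ± 4.51) and DUSP7 (34.7 ± 2.24) followed. In SCC6, DUSP5 (119 ± 29.6) and DUSP1 (74.3 ± 5.90) still led, and DUSP16 (60.9 ± 12.9) came next.

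All 10 mRNAs differed between the lines with PBS (edgeR quasi-likelihood test with Benjamini-Hochberg adjustment, background 87.4% of 19744 genes, and 69.1%, 68.4% and 72.1% for SCC6 against SCC1, SCC25 against SCC1 and SCC25 against SCC6). DUSP4 set SCC6 apart from SCC25, with levels of 222, 211, 249.7, 237 and 261 CPM in SCC6 and 12.9, 13.2, 12.6, 11.6 and 13.2 in SCC25 (PBS, days 1 to 5). SCC25 lay below SCC6 by -4.22, SE 0.17, adjusted p = 5.9e-13 as a log2 difference, and the groups were far apart. DUSP1 was also higher in SCC6, by a log2 difference of 1.90, SE 0.32, adjusted p = 4.3e-05 over SCC1, while SCC25 and SCC1 were not separated (-0.61, SE 0.31, adjusted p = 0.093). DUSP2 was nearly undetected in SCC1, at 0.0509–0.135 CPM with PBS on days 1 to 5, against 2.81–5.49 in SCC6 and 4.20–5.26 in SCC25. Its log2 difference between SCC25 and SCC1 was 5.41, SE 0.25, adjusted p = 3.7e-12. DUSP2 passed the filter on low counts there only through SCC6 and SCC25, and its SCC1 level lay near the floor. The size of that difference is therefore not ranked against those of the other genes. DUSP8 in SCC6 exceeded SCC1 by 2.69, SE 0.30, adjusted p = 4.5e-07 and SCC25 fell below SCC6 by -1.98, SE 0.29, adjusted p = 9.8e-06 on the log2 scale. DUSP10 did not separate SCC6 from SCC25 (log2 difference 0.0099, SE 0.13, adjusted p = 0.95), and DUSP9 did not separate SCC6 from SCC1 (0.58, SE 0.27, adjusted p = 0.065) or from SCC25 (0.51, SE 0.26, adjusted p = 0.089).

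With cetuximab, DUSP4, DUSP5 and DUSP6 fell in all 3 lines, DUSP8 rose in all 3, and the others changed in some lines. In SCC1, 6 of the 9 genes tested passed an adjusted p of 0.05, 3 higher and 3 lower (background 44.8% of 17984 genes, 22.7% higher and 22.1% lower). In SCC6, 8 of 10 passed, 2 higher and 6 lower (background 30.1% of 17387 genes, 15.6% higher and 14.6% lower). In SCC25, 7 of 10 passed, 2 higher and 5 lower (background 18.3% of 19101 genes, 8.80% higher and 9.50% lower). The median log2 fold change of the genes tested was -0.13 in SCC1, -0.71 in SCC6 and -0.50 in SCC25, against 0.021, 0.0039 and 0.0062 over all genes tested. DUSP2 did not pass the filter on low counts in SCC1. In bulk RNA, fewer expressing cells and less RNA per cell cannot be told apart. The PBS and cetuximab ranges did not overlap for 4, 5 and 7 of these genes in SCC1, SCC6 and SCC25, where 36.2%, 21.4% and 17.8% of expressed genes did not overlap.

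**Figure D1:**
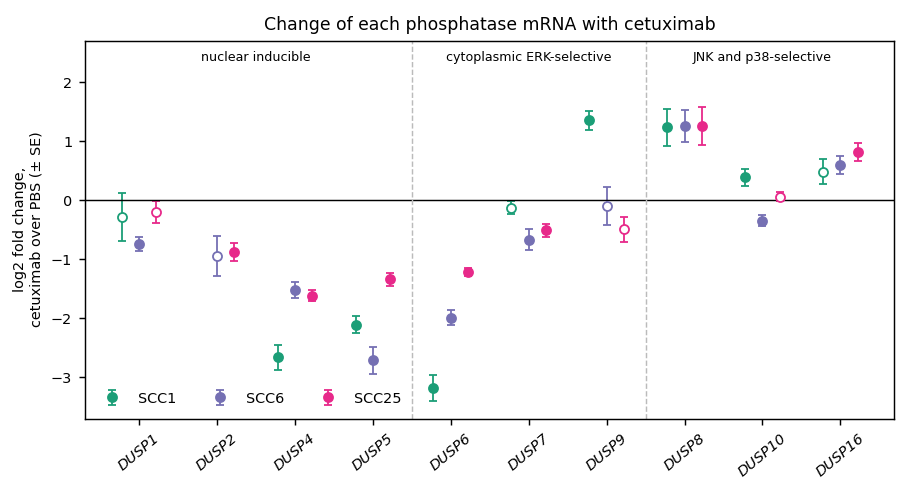
Log2 fold change with cetuximab over PBS (y axis, ± SE from the edgeR fit) for each phosphatase gene (x axis) in SCC1, SCC6 and SCC25, 5 libraries per treatment. Filled points passed an adjusted p of 0.05 and open points did not. DUSP4, DUSP5 and DUSP6 lie below -1 in every line and DUSP8 lies above 1 in every line.

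DUSP6, the cytoplasmic ERK phosphatase (GRCh37 chr12:89741012-89746278, minus strand), showed the largest fall of the group in SCC1. There it was at 106, 177, 166, 145 and 100.2 CPM with PBS on days 1 to 5 and at 14.02, 20.2, 18.6, 13.7 and 9.15 with cetuximab. The lowest PBS library was still several times the highest cetuximab library, and the PBS values peaked in the middle of the course. The mean fell 9.17-fold (log2 fold change -3.19, SE 0.22, adjusted p = 9.3e-07). In SCC6 the values were 50.3, 52.8, 46.1, 44.4 and 36.7 CPM with PBS and 11.8, 12.1, 13.2, 10.2 and 11.5 with cetuximab in the libraries 2a, 2b and days 3 to 5 (log2 fold change -1.99, SE 0.12, adjusted p = 3.0e-06). In SCC25 they were 84.99, 93.96, 95.9, 91.4 and 77.6 CPM and 40.2, 40.6, 39.2, 37.7 and 33.5 CPM (log2 fold change -1.22, SE 0.074, adjusted p = 6.5e-06). The ranges were apart in all 3 lines, and the cetuximab values varied little from day to day in SCC6 and SCC25.

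DUSP4, a nuclear phosphatase of ERK and JNK, fell in the same 3 lines. In SCC1 it was at 73.3, 137, 157, 132 and 95.3 CPM with PBS and 21.2, 22.4, 22.3, 13.8 and 13.4 with cetuximab (log2 fold change -2.67, SE 0.22, adjusted p = 2.5e-06). In SCC6, the cetuximab libraries stood at 85.3, 94.03, 102, 76.4 and 57.8 CPM, below every PBS value given above (log2 fold change -1.53, SE 0.14, adjusted p = 2.4e-05). In SCC25 they stood at 4.60, 4.44, 3.51, 4.24 and 3.94 CPM, also below every PBS value (log2 fold change -1.62, SE 0.09, adjusted p = 3.3e-06). The level left with cetuximab in SCC6, the line with the most DUSP4, still exceeded the PBS level of SCC25.

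DUSP5, a nuclear phosphatase specific for ERK (GRCh37 chr10:112257665-112271291, plus strand), fell most in SCC6. Its values there were 119, 177, 227, 218 and 239 CPM with PBS and 25.99, 36.8, 41.3, 23.99 and 23.1 with cetuximab (log2 fold change -2.72, SE 0.22, adjusted p = 1.3e-05). The PBS values rose with days in culture and the cetuximab values did not. In SCC1 it was at 59.3, 99.01, 116, 93.6 and 85.4 CPM and 18.2, 23.6, 21.5, 21.5 and 19.6 CPM (log2 fold change -2.11, SE 0.14, adjusted p = 8.5e-07). In SCC25 it was at 44.7, 44.6, 58.9, 58.1 and 52.7 CPM and 18.1, 18.6, 20.98, 25.3 and 19.8 CPM (log2 fold change -1.34, SE 0.11, adjusted p = 3.2e-05). The cetuximab levels of the 3 lines came close together, at means of 20.9, 30.2 and 20.6 CPM in SCC1, SCC6 and SCC25, from PBS means of 90.6, 196 and 51.8 CPM.

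**Figure D2:**
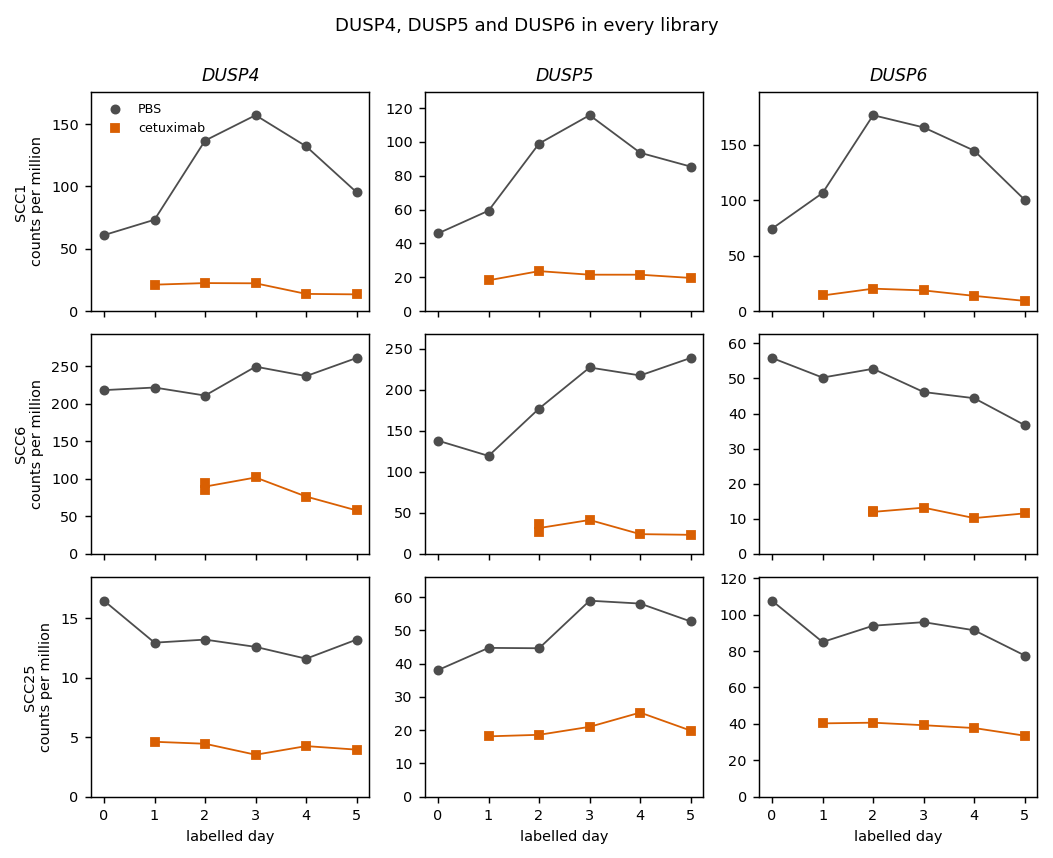
DUSP4, DUSP5 and DUSP6 in CPM (y axis, from 0) by labelled day (x axis) in each line, 1 point per library, PBS as circles and cetuximab as squares. Lines join the mean of each day. From day 1 on, every cetuximab point lies below every PBS point of its panel.

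The falls differed in size between the lines. A test of the difference itself (line-by-treatment interaction) passed for 5 of the 10 genes, DUSP4, DUSP5, DUSP6, DUSP9 and DUSP10 (background 26.1% of 21414 genes). For single pairs of lines the background was 19.3% for SCC6 against SCC1, 8.52% for SCC25 against SCC1 and 17.5% for SCC25 against SCC6. DUSP6 fell less in SCC6 than in SCC1, by a log2 difference of 1.22, SE 0.22, adjusted p = 1.5e-04, and less in SCC25 than in SCC1, by 1.98, SE 0.22, adjusted p = 5.1e-07. It also fell less in SCC25 than in SCC6 (0.76, SE 0.22, adjusted p = 0.016). DUSP4 fell more in SCC1 than in SCC6 (1.17, SE 0.23, adjusted p = 4.9e-04) or SCC25 (1.06, SE 0.24, adjusted p = 0.0042), while SCC25 and SCC6 were not separated (-0.10, SE 0.24, adjusted p = 0.82). DUSP5 fell less in SCC25 than in SCC6 (1.37, SE 0.25, adjusted p = 2.4e-04) and than in SCC1 (0.79, SE 0.25, adjusted p = 0.045), where the call was lost when any 1 of 14 libraries was left out. With day as a replicate block DUSP5 also fell more in SCC6 than in SCC1 (-0.76, adjusted p = 0.0052, against -0.58, adjusted p = 0.1 without the block). With flow cell as a covariate the difference between SCC6 and SCC1 in DUSP6 was 0.86 (adjusted p = 0.065), that between SCC25 and SCC6 0.73 (adjusted p = 0.088), and SCC25 was not separated from SCC1 in DUSP4 0.86 (adjusted p = 0.18) or DUSP5 0.53 (adjusted p = 0.39). Over all 3 lines the DUSP4 difference then had adjusted p = 0.059 and that of DUSP10 0.26.

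Across the 11 libraries of each line, the 3 genes ran together, and the following correlations are a description over libraries that share treatment and day. Among 11249 genes expressed in all lines, the closest to DUSP4 by mean Pearson r over the lines were FOSL1 (0.977), PHLDA1 (0.976), DUSP6 (0.973), SPRY4 (0.969) and SLC20A1 (0.967). The closest to DUSP6 were AKAP12 (0.979), SLC20A1 (0.978), RP11-488P3.1 (0.974), SPRY4 (0.974) and AATF (0.973), with DUSP4 in rank 6. The closest to DUSP5 were SOX9 (0.962), PHLDA1 (0.961), DNMBP (0.961), ZNF697 (0.960) and AREG (0.960), and DUSP4 came in rank 9. AREG encodes the EGFR ligand amphiregulin, FOSL1 a component of AP-1 and SPRY4 a feedback inhibitor of receptor tyrosine kinase signalling. DUSP8 and DUSP16 ran opposite to DUSP6, with mean r of -0.801 and -0.775.

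DUSP1, the inducible nuclear phosphatase of p38, JNK and ERK (GRCh37 chr5:172195099-172198198, minus strand), fell in SCC6 only by this test, and the difference between lines did not pass (interaction adjusted p = 0.58). With day as a replicate block the interaction passed (adjusted p = 0.0083), and SCC6 differed from SCC1 (-0.53, adjusted p = 0.011). In SCC6 it was at 132, 143, 158, 153 and 161 CPM with PBS and 66.9, 96.6, 104, 92.7 and 92.4 with cetuximab, with library 2a the lowest and no overlap (log2 fold change -0.74, SE 0.11, adjusted p = 6.6e-04). In SCC1 the values were 15.6, 22.5, 38.9, 44.1 and 80.7 CPM with PBS and 16.5, 23.3, 31.1, 34.6 and 57.9 with cetuximab. Both series climbed with the days and overlapped over most of their range (log2 fold change -0.29, SE 0.41, adjusted p = 0.59). The SCC1 value turned to 0.11 (adjusted p = 0.83) without the PBS library of day 5. In SCC25 DUSP1 was at 16.6, 22.8, 28.5, 30.2 and 33.7 CPM and 16.8, 22.4, 19.7, 27.6 and 28.5 CPM, again overlapping (log2 fold change -0.20, SE 0.19, adjusted p = 0.50).

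DUSP2, an inducible nuclear phosphatase best known from immune cells (GRCh37 chr2:96808908-96811179, minus strand), was low. In SCC25 it was at 5.26, 4.62, 4.20, 4.22 and 4.99 CPM with PBS and 2.81, 2.26, 1.65, 2.78 and 3.12 with cetuximab, without overlap (log2 fold change -0.89, SE 0.15, adjusted p = 0.0027). In SCC6 it was at 5.49, 2.81, 3.13, 3.51 and 3.11 CPM and 0.882, 1.43, 1.118, 3.07 and 2.81 CPM. The libraries 2a, 2b and day 3 were clearly below PBS and those of days 4 and 5 were not (log2 fold change -0.95, SE 0.34, adjusted p = 0.055). The SCC6 change was -1.46 (adjusted p = 2.3e-04) with flow cell as a covariate and -0.78 (adjusted p = 0.04) with day as a replicate block. It also passed with DESeq2 (-0.98, adjusted p = 0.022), without the cetuximab library of day 4 (-1.20, adjusted p = 0.025) and without that of day 5 (-1.13, adjusted p = 0.048). The flow cell value rests on libraries 2a, 2b and day 3 against PBS days 2 to 5. The cetuximab libraries of days 4 and 5, which were not below PBS, do not enter it.

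DUSP7, which inactivates ERK in the cytoplasm (GRCh37 chr3:52082935-52090587, minus strand), fell modestly in SCC6 and SCC25. In SCC6 the values were 99.9, 64.3, 60.2, 52.9 and 47.8 CPM with PBS and 37.02, 37.5, 41.05, 43.97 and 47.3 with cetuximab (log2 fold change -0.67, SE 0.18, adjusted p = 0.015). The PBS series declined steadily, and by day 5 the treatments had nearly met. In SCC25 they were 119, 118, 106, 103 and 112 CPM and 91.4, 93.4, 59.3, 76.4 and 70.5 CPM, without overlap (log2 fold change -0.51, SE 0.11, adjusted p = 0.0089). Within the flow cell that held PBS and cetuximab days 1 and 2 of SCC25, the change was -0.27 (adjusted p = 0.11). In SCC1, DUSP7 was at 82.7–107 CPM with PBS and 69.6–108 with cetuximab (log2 fold change -0.13, SE 0.11, adjusted p = 0.38), and without the cetuximab library of day 5 the change was -0.24 (adjusted p = 0.044).

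DUSP9, the other cytoplasmic ERK phosphatase (GRCh37 chrX:152907946-152916781, plus strand), rose in SCC1, where DUSP6 fell most. Its values there were 2.77, 1.95, 1.62, 1.57 and 2.22 CPM with PBS and 4.36, 4.98, 4.92, 5.47 and 5.92 with cetuximab, without overlap (log2 fold change 1.35, SE 0.16, adjusted p = 3.5e-05). In SCC6 they were 5.67, 2.63, 2.55, 2.496 and 1.58 CPM and 2.43, 2.27, 2.11, 4.37 and 2.83 CPM, with the PBS library of day 1 far above the rest (log2 fold change -0.11, SE 0.32, adjusted p = 0.84). In SCC25 they were 3.19, 4.17, 4.44, 4.496 and 5.03 CPM and 3.71, 4.29, 1.76, 2.69 and 2.69 CPM, overlapping (log2 fold change -0.49, SE 0.21, adjusted p = 0.12). Without the cetuximab library of day 2 the SCC25 change was -0.64 (adjusted p = 0.043), and with the GC trend removed -0.36 (adjusted p = 0.02). The change in SCC6 differed from that in SCC1 by -1.43, SE 0.36, adjusted p = 0.0052, and the change in SCC25 by -1.83, SE 0.36, adjusted p = 8.9e-04, as log2 differences. SCC25 and SCC6 were not separated (-0.41, SE 0.36, adjusted p = 0.48).

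**Figure D3:**
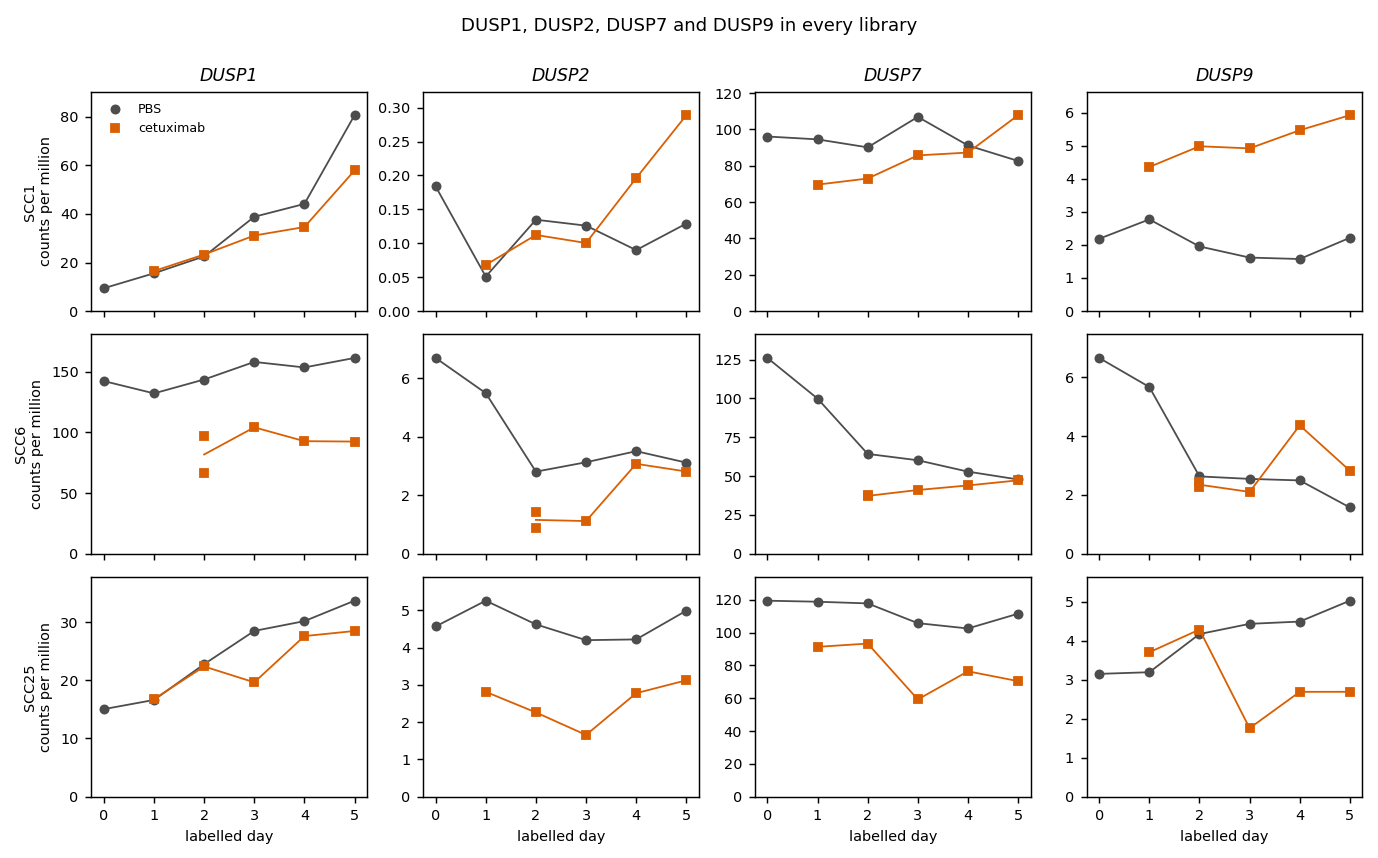
DUSP1, DUSP2, DUSP7 and DUSP9 in CPM (y axis, from 0) by labelled day (x axis) in each line, 1 point per library, PBS as circles and cetuximab as squares. DUSP1 climbs with the days in SCC1 with either treatment, and DUSP9 is higher with cetuximab in every SCC1 library.

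DUSP8, a phosphatase of JNK and p38 (GRCh37 chr11:1575281-1593501, minus strand), rose by nearly the same factor in the 3 lines from very different levels. In SCC1 it was at 1.22, 1.08, 1.41, 1.19 and 2.37 CPM with PBS and 1.63, 2.49, 4.49, 3.14 and 5.30 with cetuximab (log2 fold change 1.24, SE 0.31, adjusted p = 0.0062). In SCC6 it was at 9.66, 7.38, 8.61, 10.01 and 11.2 CPM and 10.2, 17.5, 22.1, 34.6 and 28.7 CPM (log2 fold change 1.26, SE 0.27, adjusted p = 0.0048). In SCC25 it was at 0.861, 1.84, 2.54, 2.98 and 3.71 CPM and 3.81, 5.78, 4.10, 7.79 and 7.15 CPM (log2 fold change 1.26, SE 0.32, adjusted p = 0.019). On every labelled day the cetuximab library exceeded the PBS library of the same day, but the ranges overlapped in SCC1 and in SCC6. Mean levels were 2.348, 2.42 and 2.40 times those with PBS in SCC1, SCC6 and SCC25, and the interaction test gave an adjusted p of 0.998. With the GC trend removed and day as a replicate block it gave 0.01.

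The DUSP8 change within a flow cell was 0.54 (adjusted p = 0.46) in SCC1, 0.82 (adjusted p = 0.015) in SCC6 and 1.01 (adjusted p = 0.15) in SCC25. In SCC1 the only PBS library of that flow cell was that of day 5, which stood above the other PBS libraries (2.37 CPM against 1.08–1.41). In SCC25, with no flow cell term, the adjusted p was 0.054 without the PBS library of day 2 and likewise without the cetuximab library of day 4. The antisense RNA KRTAP5-AS1 overlaps DUSP8 on the other strand and lay at or under 0.452 CPM in SCC1 and SCC25, but reached 0.733 with PBS and 3.90 with cetuximab in SCC6. The use of strand in counting was not stated, so reads of the pair may not be fully separated. The processed pseudogene DUSP8P5 stood at 0.378–1.87 CPM over all libraries and did not pass the test in any line, and reads may be split between it and DUSP8.

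DUSP16, a JNK and p38 phosphatase that shuttles between nucleus and cytoplasm (GRCh37 chr12:12626216-12715797, minus strand), rose in SCC6 and SCC25. In SCC6 it was at 24.7, 32.8, 35.8, 36.6 and 45.3 CPM with PBS and 43.2, 53.1, 58.9, 51.7 and 60.6 with cetuximab (log2 fold change 0.59, SE 0.15, adjusted p = 0.01). In SCC25 it was at 10.8, 9.53, 12.8, 14.3 and 14.996 CPM and 16.6, 18.3, 23.6, 26.6 and 25.1 CPM, without overlap (log2 fold change 0.81, SE 0.15, adjusted p = 0.0041). The change within a flow cell was 0.49 (adjusted p = 0.071) in SCC25. In SCC1 it was at 14.8, 15.6, 19.4, 17.8 and 33.3 CPM and 19.9, 25.95, 32.4, 31.6 and 30.001 CPM (log2 fold change 0.48, SE 0.21, adjusted p = 0.075). The PBS library of day 5 was the highest of all 10 there. Without it the change was 0.72 (adjusted p = 0.0011), without the cetuximab library of day 1 0.58 (adjusted p = 0.035), with day as a replicate block 0.53 (adjusted p = 0.012), and within the flow cell, where that library was the only PBS one, -0.24 (adjusted p = 0.46).

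DUSP10, which inactivates p38 and JNK (GRCh37 chr1:221874766-221915431, minus strand), moved in opposite directions in SCC1 and SCC6. In SCC1 it was at 30.6, 28.6, 41.9, 41.1 and 50.5 CPM with PBS and 44.3, 40.7, 52.03, 58.1 and 55.2 with cetuximab (log2 fold change 0.39, SE 0.15, adjusted p = 0.048). In SCC6 it was at 54.9, 66.2, 77.7, 69.5 and 67.3 CPM and 51.6, 51.5, 55.97, 51.2 and 56.9 CPM (log2 fold change -0.35, SE 0.10, adjusted p = 0.018). In both lines the ranges overlapped. The difference between the 2 changes passed the test (-0.71, SE 0.17, adjusted p = 0.003). It was -0.39 (adjusted p = 0.28) with flow cell as a covariate, and the SCC1 change within the flow cell was 0.0016 (adjusted p = 1.00). The SCC1 call was lost when any 1 of 7 libraries was left out, those of PBS days 1 to 4 and of cetuximab days 3 to 5, and the SCC6 call when the PBS library of day 3 was left out (adjusted p = 0.055). Both calls were also lost under at least 1 processing alternative other than the flow cell covariate. With day as a replicate block, the change in SCC25 also differed from that in SCC1 (-0.33, adjusted p = 0.01) and in SCC6 (0.44, adjusted p = 8.4e-04), where the fit without the block gave adjusted p = 0.30 and 0.11. In SCC25 DUSP10 was at 64.1–78.2 CPM with PBS and 64.6–80.8 with cetuximab (log2 fold change 0.056, SE 0.076, adjusted p = 0.66).

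**Figure D4:**
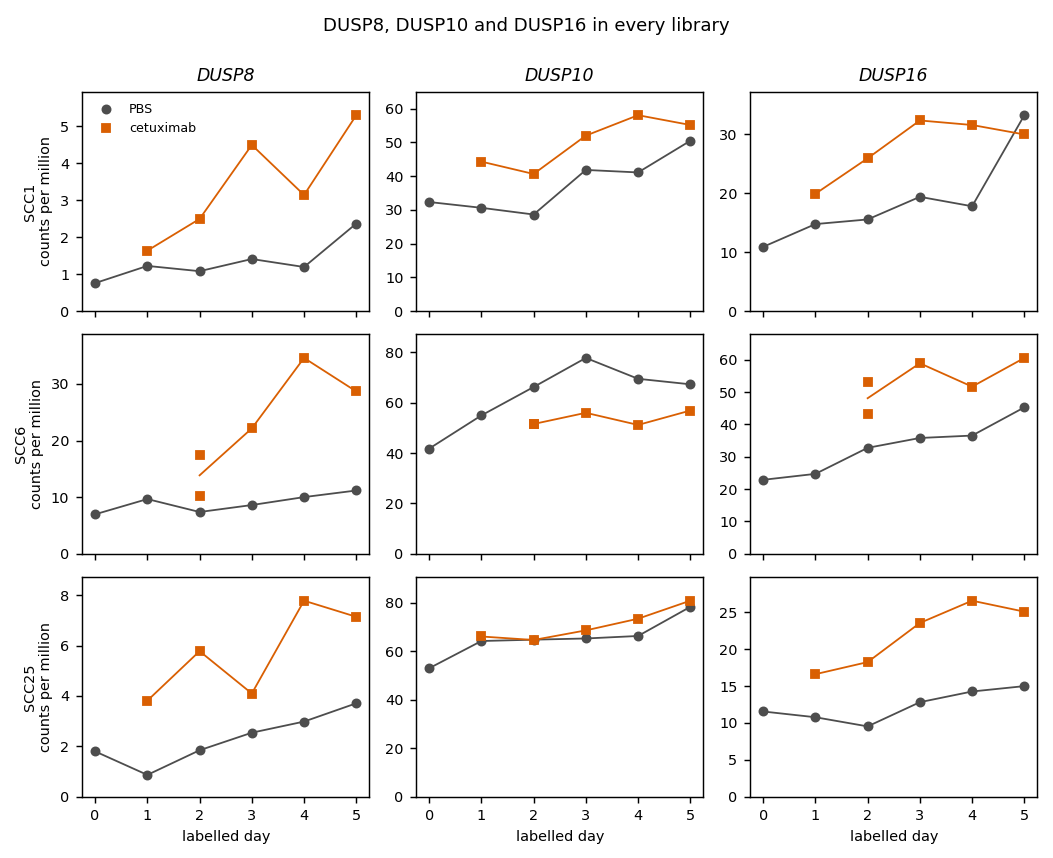
DUSP8, DUSP10 and DUSP16 in CPM (y axis, from 0) by labelled day (x axis) in each line, 1 point per library, PBS as circles and cetuximab as squares. DUSP8 is higher with cetuximab than with PBS on every labelled day, and DUSP16 in SCC1 with PBS jumps to 33.3 CPM on day 5.

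Fitted over the 3 lines together, with line as a term, 7 of the 10 genes passed (background 41.5% of 21414 genes, 22.3% higher and 19.1% lower). DUSP8 (1.26, SE 0.19, adjusted p = 4.5e-06) and DUSP16 (0.63, SE 0.11, adjusted p = 3.4e-05) were higher with cetuximab. DUSP6 (-2.12, SE 0.18, adjusted p = 8.5e-10), DUSP5 (-2.05, SE 0.15, adjusted p = 4.4e-11), DUSP4 (-1.94, SE 0.14, adjusted p = 4.4e-11), DUSP2 (-0.70, SE 0.20, adjusted p = 0.0048) and DUSP7 (-0.43, SE 0.092, adjusted p = 3.8e-04) were lower. The DUSP2 fall rests on SCC6 and SCC25, and SCC6 alone did not pass (adjusted p = 0.055). In SCC1 DUSP2 was near the floor and not lower, at means of 0.106 CPM with PBS and 0.153 with cetuximab. DUSP1 was at -0.41, SE 0.18, adjusted p = 0.06, and passed at -0.37 (adjusted p = 0.0026) with day as a replicate block, -0.78 (adjusted p = 0.004) with flow cell as a covariate and -0.45 (adjusted p = 0.036) with the GC trend removed. It also passed when any 1 of 5 libraries was left out. In SCC1 the flow cell of the cetuximab libraries held 1 PBS library, that of day 5. That library had the highest DUSP1 of the line (80.7 CPM), and the SCC1 change within the flow cell was -1.29. Day in culture and treatment are mixed in that value. DUSP9 (0.24, SE 0.21, adjusted p = 0.37) and DUSP10 (0.036, SE 0.086, adjusted p = 0.77) did not pass. All values are log2 fold changes.

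The makeup of the pool shifted with these changes. Summed per kilobase of longest transcript, the nuclear inducible class went from 78.1 ± 19.9 to 28.1 ± 7.23 CPM per kilobase in SCC1, from 198 ± 28.1 to 73.2 ± 10.9 in SCC6 and from 39.1 ± 5.52 to 21.96 ± 3.44 in SCC25 (mean ± SD, 5 libraries each). The cytoplasmic class went from 66.8 ± 10.9 to 31.5 ± 3.98, from 33.3 ± 7.93 to 16.7 ± 1.37 and from 59.4 ± 2.36 to 35.05 ± 5.11 in the same order. Both classes were lower with cetuximab in each line, while the JNK and p38-selective class stood at 18.2 ± 4.58 and 24.2 ± 3.68, 33.1 ± 3.92 and 33.4 ± 3.35, and 28.5 ± 2.73 and 31.8 ± 3.35. The share of this class in the summed level thus went from 11.2 ± 2.42% to 29.1 ± 2.42% in SCC1. It went from 12.5 ± 0.512% to 27.1 ± 2.23% in SCC6 and from 22.4 ± 1.47% to 35.8 ± 3.27% in SCC25, and the shares did not overlap in any line. With the median transcript length, which is short for DUSP16, the shares were 19.9% and 53.4%, 26.4% and 55.9%, and 30.1% and 51.2%.

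**Figure D5:**
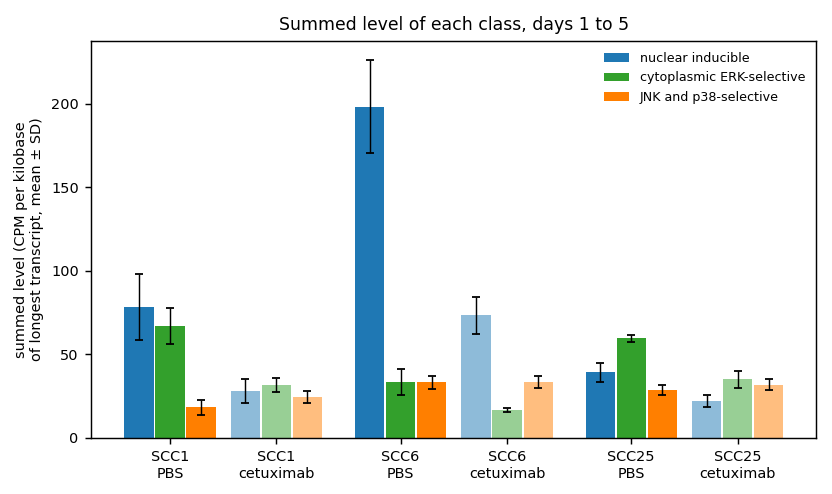
Summed level of each class in CPM per kilobase of longest transcript (y axis, from 0) by line and treatment (x axis). Bars are means and error bars the SD over the 5 libraries of days 1 to 5, with cetuximab in paler colours. The nuclear inducible and cytoplasmic bars are shorter with cetuximab in each line, and the JNK and p38-selective bars are not.

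The highest single gene per length changed in each line, though with PBS the order of the leading genes was not settled in SCC1 and SCC6. In SCC1 it went from DUSP6 to DUSP7 (25.2 ± 4.49) with DUSP10 next (19.3 ± 2.84). With cetuximab it was DUSP1 (44.97 ± 6.97) in SCC6, where DUSP5 had led with PBS. In SCC25 it was DUSP10 (27.3 ± 2.54), where DUSP7 had led with PBS. In SCC25 the next was DUSP7 (23.3 ± 4.27), and the gap was smaller than the SD of DUSP7. With the median transcript length DUSP16 led with cetuximab in SCC1 and in SCC6.

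The other genes of the pathway are set beside these by their counts, from lists chosen by known function with earlier results of these data known. Of 14 ERK-responsive genes, which include the Sprouty inhibitors and immediate early transcription factors, 9 of 13 tested fell in SCC1, 11 of 14 in SCC6 and 9 of 14 in SCC25, and none rose. Of all genes tested, 22.1%, 14.6% and 9.50% fell in these lines and 22.7%, 15.6% and 8.80% rose. The median log2 fold changes of the list were -1.31, -0.96 and -0.63. EGR1, an immediate early transcription factor, fell most in SCC6 (-4.35) and in SCC25 (-2.44), and PHLDA1 in SCC1 (-3.66). By the median of this list SCC1 was the most and SCC25 the least reduced, the order seen for DUSP6 but not for DUSP4 or DUSP5. DUSP5 fell most in SCC6 (-2.72), and DUSP4 was at -1.53 in SCC6 and -1.62 in SCC25. The difference between lines was not tested for the list.

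Of the 10 MAP kinase genes, 3 rose and 3 fell in SCC1, 3 rose and 1 fell in SCC6, and 2 rose and none fell in SCC25 (medians -0.014, 0.20 and 0.070). Of all genes tested, 44.8%, 30.1% and 18.3% passed in these lines, so the share of MAP kinase genes lay near the background. MAPK14, which encodes p38 alpha, rose in each line, by log2 fold changes of 0.24, 0.41 and 0.20 in SCC1, SCC6 and SCC25. MAPK13, which encodes p38 delta, was the most reduced in SCC1 (-0.82) and SCC6 (-0.86). The largest rises were those of MAPK10, which encodes JNK3, in SCC1 (1.81) and SCC25 (0.60) and of MAPK7, which encodes ERK5, in SCC6 (0.80). Of 7 MAP kinase kinase genes, 2 rose and 3 fell in SCC1, none rose and 2 fell in SCC6, and 1 rose and 3 fell in SCC25 (medians 0.071, 0.019 and -0.15). MAP2K3, an activator of p38, fell most of these in each line (-1.17, -0.75 and -0.37). MAP2K6, another activator of p38, rose in SCC1 (1.22) and SCC25 (0.80), and MAP2K1, which encodes an activator of ERK, fell in each line.

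The most similar genes were 16 other dual specificity phosphatases. Of 11 tested in each line, 3 rose and 4 fell in SCC1, 3 rose and 1 fell in SCC6, and 1 rose and 1 fell in SCC25 (medians -0.12, 0.30 and -0.0015). The background in either direction was 44.8%, 30.1% and 18.3% of all genes tested. DUSP3, a small phosphatase that also acts on ERK and JNK, rose in each line (0.45, 0.59 and 0.26), and DUSP12 fell in each. The largest changes in SCC1 were in DUSP28 (0.52) and DUSP23 (-0.75). No value of this list passed a log2 fold change of 1 in either direction among those that passed the test. Of the 3 tyrosine phosphatases of MAP kinases, 1 of 2 tested fell in SCC1 (PTPN7, -0.76), and the 1 tested in SCC6 and in SCC25 did not pass.

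Days in culture moved several of the mRNAs without cetuximab. With PBS, 2 of 9 genes had a slope over days 0 to 5 that passed in SCC1 (background 3.22% of 16315 genes), 7 of 10 in SCC6 (38.3% of 14960) and 5 of 10 in SCC25 (13.4% of 17261). In SCC1, DUSP1 went from 9.40 CPM on day 0 to 80.7 on day 5 (log2 slope per day 0.59, SE 0.032, adjusted p = 3.6e-04), and DUSP16 rose as well (0.26, SE 0.044, adjusted p = 0.029). In SCC25, DUSP1 went from 15.04 to 33.7 CPM (0.25, SE 0.026, adjusted p = 2.9e-05), and DUSP5, DUSP8, DUSP9 and DUSP10 rose too, by slopes of 0.11, 0.30, 0.14 and 0.087. In SCC6, DUSP7 went from 126 to 47.8 CPM (-0.30, SE 0.036, adjusted p = 8.6e-04) and DUSP9 from 6.66 to 1.58 (-0.42, SE 0.065, adjusted p = 0.0022). DUSP2 (-0.23) and DUSP6 (-0.12) declined there, while DUSP5 (0.18), DUSP10 (0.12) and DUSP16 (0.18) rose. These counts moved by more than 1.5 times when 1 library was left out, to 1 without day 0 or day 1 and 4 without day 5 in SCC1, to 4 without day 0 in SCC6, and to 3 without day 0 and 2 without day 5 in SCC25.

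The change with cetuximab was present from the first days. On days 1 to 3, 8 of 9 genes differed from PBS in SCC1 (background 29.6% of 19660 genes), 8 of 10 in SCC6 (20.3% of 19150) and 6 of 10 in SCC25 (7.84% of 20740). On days 4 and 5, 4, 5 and 4 did (29.9%, 37.8% and 2.71%). The late contrast held fewer libraries than the early one, so the counts of the periods differ in power and do not show a waning change. The early count in SCC1 was 5 without the library of PBS day 1, PBS day 2, cetuximab day 2 or cetuximab day 3. The late count was 8 in SCC6 without the library of PBS day 1, and in SCC25 it was 8 without that of cetuximab day 3 and 2 without that of cetuximab day 5, which left 1 late cetuximab library whose spread is taken from the others. With day as a replicate block the late count was 7 in SCC1 and 8 in SCC6. DUSP4, DUSP5 and DUSP6 passed in both periods in each line. In SCC6 the DUSP5 log2 fold change was -2.36, SE 0.22, adjusted p = 7.5e-05 early and -3.28, SE 0.28, adjusted p = 5.9e-05 late, and that of DUSP4 was -1.31, SE 0.12, adjusted p = 8.3e-05 and -1.90, SE 0.15, adjusted p = 5.2e-05. DUSP2 went from -1.77, SE 0.29, adjusted p = 0.0021 to -0.18, SE 0.33, adjusted p = 0.70, and DUSP7 from -0.999, SE 0.18, adjusted p = 0.0036 to -0.15, SE 0.22, adjusted p = 0.62.

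The difference between late and early changes passed for none of these genes, and for 0 genes in all, in any of the 3 lines with edgeR (background 0.00%). At an unadjusted p under 0.05, 1458, 5626 and 599 genes differed in SCC1, SCC6 and SCC25. In SCC6 the smallest adjusted p among the 10 was that of DUSP2 (1.59, SE 0.44, adjusted p = 0.093). With day as a replicate block, 5 of the 10 passed in SCC6 (background 12.9%). These were DUSP2 (1.19, adjusted p = 0.046), DUSP4 (-0.63, adjusted p = 0.046), DUSP5 (-0.79, adjusted p = 0.036), DUSP7 (0.55, adjusted p = 0.031) and DUSP9 (1.04, adjusted p = 0.032). In the block fit the SCC6 PBS library of day 1, which was high for DUSP2 and DUSP9, had no cetuximab partner and did not enter the change. Libraries 2a and 2b were both set against PBS day 2, so that fit rests on their labels. DESeq2 and the fit with no filter on low counts also called 5. In SCC6 the late cetuximab libraries had a flow cell to themselves and were the deepest sequenced, so period and flow cell cannot be told apart there.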

How the data were processed

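RNA was sequenced from 33 libraries of 3 cell lines. Per the labels and the study's methods, the authors made expected counts per gene with Salmon 0.8.2 and tximport (hg19 and GRCh37 named in the submitters' processing notes, annotation not given in the sources used here) after a stranded library kit with poly(A) enrichment. The deposited counts were rounded to whole numbers. Lowly expressed genes were removed with filterByExpr, TMM factors were computed and the quasi-likelihood test of edgeR 4.0.16 (R 4.3.3) was run on days 1 to 5, with Benjamini-Hochberg adjustment over all genes and a threshold of 0.05. The SE of a log2 fold change was its size divided by the square root of the F statistic. CPM values use TMM factors over all 33 libraries, and correlations use log2(CPM + 0.1). The fits covered each line, the line-by-treatment interaction, treatment with line as a term, days 4 and 5 against days 1 to 3, lines with PBS and the PBS slope over days 0 to 5. The scripts were tested on simulated data.

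Alternatives were DESeq2 1.42.0, its size factors, library totals, no filter, leaving out each library, day as a block, flow cell (from the library titles) as a covariate, a GC trend removed with and without the block, day 0 added to PBS, and a log2 threshold of 1. Day pairs treatments by label, so SCC6 PBS day 1 has no cetuximab partner and libraries 2a and 2b share PBS day 2. Same-day deviations correlated at 0.0571 to 0.174 in SCC1, 0.0954 to 0.2 in SCC25 and -0.062 to 0.266 in SCC6.

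The 10 genes, the gene lists and the markers were chosen with earlier results of these data known. Every one of the 10 genes is described, and from each list the genes with the largest rise or fall are named in each line. MAPK14 and MAP2K1 were named after their values were seen, because they passed in all 3 lines. Gene positions are from GENCODE (GRCh37) and promoters from RefSeq. The promoters of DUSP4 and DUSP5 were not scanned, so nothing is said of their motifs. The longest transcript replaced the median length as the main scale after lengths were seen, since annotated fragments shorten the median.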

Additional observations from a re-analysis of the deposited data

Results flagged for a closer look

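In 5 of the 60 groups of 5 libraries tested, 1 library stood apart from the other 4, and chance alone gives about 1 in 20. The SCC1 PBS library of day 5 did so for DUSP8, at 2.37 CPM against 1.08–1.41, and for DUSP16, at 33.3 CPM against 14.8–19.4. The SCC6 PBS library of day 1 did so for DUSP2, at 5.49 CPM against 2.81–3.51, and for DUSP9, at 5.67 CPM against 1.58–2.63. The SCC25 PBS library of day 5 did so for DUSP10, at 78.2 CPM against 64.1–66.2. Both days lie at an end of the course, and their part in the changes was not tested beyond leaving the library out.

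The size of the cetuximab change differed between the 3 lines, by the interaction test of edgeR, for DUSP6 (adjusted p = 3.5e-07), DUSP5 (adjusted p = 0.00044), DUSP4 (adjusted p = 0.00049), DUSP9 (adjusted p = 0.00067) and DUSP10 (adjusted p = 0.0072). DUSP4, DUSP5 and DUSP6 were lower with cetuximab in each line, DUSP9 was higher in every SCC1 library, and DUSP10 was higher in SCC1 and lower in SCC6.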

How the results depend on the processing

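With a log2 fold change of at least 1 also required, 4 genes passed in SCC6 (background 1687 of 17387 genes) and 4 in SCC25 (300 of 19101). With flow cell as a covariate, 4 passed in SCC25 (1417 of 19101) and the line-by-treatment difference passed for 3 genes (3080 of 21414). It passed for 9 with GC trend removed and day as replicate block, where 9021 of all 17268 genes passed. For SCC6 late against early changes, the count was 5 with no filter on low counts, 5 with the day block, 5 with DESeq2 and 0 to 2 leaving out a library (2 without the PBS library of day 1). PBS slope counts ranged over 1 to 4 in SCC1 (4 with DESeq2), 4 to 7 in SCC6 and 2 to 6 in SCC25 leaving out a library.

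Of the 21 calls within lines, 15 stayed past the threshold under every alternative other than the log2 threshold of 1, among them all 9 of DUSP4, DUSP5 and DUSP6. The others were DUSP8 in SCC1 and SCC25, DUSP10 in SCC1 and SCC6, and DUSP7 and DUSP16 in SCC25. The log2 threshold kept 13 of the 21. DUSP7, DUSP8, DUSP10 and DUSP16 lost a call with flow cell as a covariate in at least 1 line. No called value changed sign within a line. Values that did not pass and changed sign were those of DUSP1 in SCC1 without the PBS library of day 5 (0.11, in a range from -0.62 leaving out any library), DUSP9 in SCC6 without the PBS library of day 1 (0.26, in a range from -0.33) or with the day block (0.26), and DUSP10 over the 3 lines without the SCC1 PBS library of day 1 (-0.00088) or day 2 (-0.0068, in a range up to 0.066). With flow cell as a covariate DUSP7 (0.0498) and DUSP16 (-0.24) in SCC1, DUSP10 in SCC25 (-0.0509) and DUSP10 over the 3 lines (-0.19) did. The cause was not tested. Beside the values given in the report, the day block changed no call within a line. DUSP2 in SCC1, at 0.0509–0.135 CPM with PBS, did not pass the filter on low counts. It was tested there with no such filter and with DESeq2.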

Other observations

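The 2 SCC6 cetuximab libraries labelled day 2 were different libraries, since their counts differed well beyond sampling noise (chi-square per gene 39.9 over 10059 genes). Library 2b lay as close to the library of day 3 (median absolute log2 ratio 0.10) as to 2a (0.13). Between 2a and 2b, DUSP8 stood at 10.2 and 17.5 CPM, DUSP1 at 66.9 and 96.6 CPM, DUSP5 at 26.0 and 36.8 CPM, DUSP16 at 43.2 and 53.1 CPM, and DUSP6 at 11.8 and 12.1 CPM.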
